A study of Mus musculus with 6 samples.

Results

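Ccr7, Fscn1, Ccl17 and Ccl22 are 4 genes that dendritic cells (DCs) switch on as they mature, and they were found by their symbols among the 20394 genes of a single-cell RNA sequencing (scRNA-Seq) table of 32953 cells. The cells were CD45+ leukocytes sorted from digested knee joints of C57BL/6 mice with antigen-induced arthritis (AIA). All mice had been immunised under the skin with 10 μg methylated bovine serum albumin (mBSA) in complete Freund's adjuvant and received 100 μg mBSA into the knee on day 21, and tissue was taken 3 days later. From day 21 they were injected intraperitoneally with phosphate buffered saline (PBS, the vehicle; 2 samples) or with 300 μg PEPITEM, an immunomodulatory peptide given here with a polyethylene glycol tail (4 samples). The mice were males bought at 8 weeks of age. The AIA model reacts to a foreign protein placed in the joint, which limits it as a model of spontaneous arthritis.

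The barcodes carry a library number from 1 to 6, and no source used here ties a number to a sample. The libraries are therefore of unknown treatment, PBS and PEPITEM were not compared, and no test was run over libraries. Values are taken over all libraries together unless a library or a range over libraries is named. For some of them the library values, or the number of libraries with the same direction, are given as well. The share of all genes with the same direction is not given, so such library counts are a description only. A value given without library values does not show how far the libraries differed. The libraries held 2919 to 9345 cells and 47273569 to 123367661 unique molecular identifiers (UMIs, each standing for 1 captured RNA molecule), with a median of 9923 to 14001 UMIs per cell. In all, 138 barcode sequences occurred in more than 1 library, among them those of 3 of the mature DC-like cells described below. Levels are UMIs of a gene summed over the cells of a class per 1000000 UMIs of that class (CPM), with 95% exact Poisson intervals. Shares of cells carry 95% exact binomial intervals. Both intervals cover counting error only and are too narrow for genes whose UMIs cluster in few cells.

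Mature DCs leave inflamed tissue through lymph vessels. CCR7 is the chemokine receptor that guides them towards CCL19 and CCL21 and on to the draining lymph node, and naive T cells and B cells use the same receptor to enter it. Fascin (Fscn1) bundles actin filaments and is found in the long protrusions of mature DCs. CCL17 and CCL22 are chemokines secreted by DCs and some macrophages, and both act on CCR4, which effector and regulatory T cells carry.

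The genes lie on 3 chromosomes of the mouse genome (GRCm38, the build of the authors' mm10 alignment, with GENCODE M21 gene models). Ccr7 (ENSMUSG00000037944) spans 99144196 to 99155077 on the minus strand of chromosome 11, and Fscn1 (ENSMUSG00000029581) spans 142960343 to 142973185 on the plus strand of chromosome 5. Ccl22 (ENSMUSG00000031779, 94745590 to 94751699) and Ccl17 (ENSMUSG00000031780, 94810453 to 94812036) lie on the plus strand of chromosome 8, with 58753 bases and the chemokine gene Cx3cl1 between them. No other gene model of GENCODE M21 overlaps any of the 4. The gene models behind the authors' counts were not checked for overlap.

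The promoters are shown because Ccl17 and Ccl22 are neighbours with a similar class pattern below, whereas Fscn1 followed a narrower one. RefSeq entries of build GRCm38.p6 were found for 3 of the 4 genes: Fscn1, Ccl17 and Ccl22. Each sequence is the plus strand, 5′ to 3′, and ends at the base before the GENCODE gene start. Capitals mark a TATA box in Fscn1 and a STAT motif in Ccl17.
Fscn1, chr5:142960105-142960342: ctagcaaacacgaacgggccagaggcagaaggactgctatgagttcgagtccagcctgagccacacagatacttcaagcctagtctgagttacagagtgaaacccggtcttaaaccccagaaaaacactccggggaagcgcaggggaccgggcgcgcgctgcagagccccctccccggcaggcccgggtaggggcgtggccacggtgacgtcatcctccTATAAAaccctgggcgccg
Ccl22, chr8:94745434-94745589: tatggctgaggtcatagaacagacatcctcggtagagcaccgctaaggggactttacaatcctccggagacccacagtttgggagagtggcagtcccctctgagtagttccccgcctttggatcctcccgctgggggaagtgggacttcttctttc
Ccl17, chr8:94810203-94810452: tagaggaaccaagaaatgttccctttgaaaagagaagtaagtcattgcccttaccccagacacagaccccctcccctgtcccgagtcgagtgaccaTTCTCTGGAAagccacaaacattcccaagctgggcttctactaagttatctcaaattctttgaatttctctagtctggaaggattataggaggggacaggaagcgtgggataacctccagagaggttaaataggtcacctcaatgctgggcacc
The 250 bases before each RefSeq start were searched on both strands for the STAT motif TTCNNNNGAA, the AP-1 motif TGANTCA, the TATA box TATAAA and the NF-kappaB consensus. Motif positions are counted back from the RefSeq start. For Fscn1 and Ccl22 that start lies beyond the GENCODE start, so only 238 and 156 of the searched bases are printed. The STAT motif occurred in Ccl17 alone of the 3, at 154 to 145 bases before the start, and in 5.85% of all 32851 promoters of the table. Other spacings of TTC and GAA were not searched. The TATA box occurred in Fscn1 alone, 31 to 26 bases before the start, and in 12.4% of all promoters. The AP-1 motif (6.75% of all promoters) and the NF-kappaB consensus (3.90%) matched none of the 3 windows. These matches describe letters and say nothing about binding in these cells.

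Cells were classed by marker genes that exclude all 4 genes of interest. A cell took a class when it held UMIs of at least 0.5 of the markers of that class, of no fewer than 3 of them, with a lead of 0.2 over the next class. This placed 24513 cells in 21 classes and left 8440 cells (25.6%) ungated. The mature DC-like class, set by Cacnb3, Il4i1, Nudt17, Socs2, Apol7c, Tbc1d4, Zmynd15 and Slco5a1, had 84 cells, which was 0.255% of all cells (0.203 to 0.315%). Libraries 1 to 6 held 21, 7, 27, 12, 12 and 5 of them, or 0.0663 to 0.925% of the cells of a library.

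Of 4 DC genes read as a check, 3 were higher in mature DC-like than in type 2 DC-like cells in 6 of 6 libraries. The share of all genes with that direction in 6 of 6 libraries is not given here, so this count is a description only. Only 1 of the 4, Batf3, was at least 4-fold higher, where 6.09% of the 9531 genes of 5 CPM or more in either class were. For these genes, mature DC-like cells are compared here with other DC classes only, which cannot set the cells apart from other lineages. The DC transcription factor Zbtb46 stood at 338 CPM and was found in 95.2% of mature DC-like cells. The DC growth factor receptor Flt3, a marker of the type 2 DC gate, stood at 444 CPM. The transcription factor Batf3 stood at 214 CPM, against 30.8 CPM in type 2 and 163 CPM in type 1 DC-like cells. Itgax, the integrin CD11c, was lower, at 38.8 CPM in 27.4% of the cells against 107 CPM in 66.2% of type 2 DC-like cells, and lower in 6 of 6 libraries. The lead of 0.2 that the gate asks for keeps out most cells rich in markers of another class. The counts and levels that follow are therefore no separate check of purity. None of the 84 cells held 3 or more markers of macrophages, monocytes, neutrophils, B cells or the other DC classes. The exceptions lay in lymphoid lists, where 2 cells held 3 or more type 2 innate lymphoid markers and 1 cell held 3 or more T cell markers. The summed macrophage markers stood at 13.4 CPM in mature DC-like cells against 9447 CPM in macrophage-like cells, and the summed neutrophil markers stood at 24.0 against 16711 CPM. All 6 fibroblast markers and all 5 basophil markers were at 0.

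Ccr7, the homing receptor, was highest in the mature DC-like cells, where its level was 3611 CPM (3512 to 3711) and all 84 cells held it. The 6 libraries stood at 3873, 3300, 3816, 3571, 2898 and 3610 CPM. A cell held a median of 58 Ccr7 UMIs, from 2 to 192. These levels differed little between libraries, although the number of mature DC-like cells ranged from 5 to 27.

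Mature B cell-like cells came next, at 466 CPM (454 to 477) with 75.9% of 2024 cells positive. Their libraries stood at 631, 454, 441, 442, 366 and 436 CPM, and none reached the lowest mature DC-like library. Because the class was so much larger, these B cells held 28.5% of all 22136 Ccr7 UMIs against 23.1% for the mature DC-like cells and 29.3% for ungated cells. Library 2 set that order, with 2357 Ccr7 UMIs in mature B cell-like and 409 in mature DC-like cells, and without it the mature DC-like cells held 28.6% and the B cells 23.9%. The mature DC-like cells held the more in 4 of 6 libraries (1, 3, 4 and 5). Library 2 also held 295 of the 812 precursor B cell-like cells. Whether the B cell-like cells came from the synovium or from another part of the joint was not tested. The median mature B cell-like cell held 2 Ccr7 UMIs, and 6.18% held 10 or more, against 95.2% of mature DC-like cells.

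Below them stood type 2 DC-like cells at 129 CPM (121 to 137; lowest, median and highest library 67.6, 132 and 203) and T cell-like cells at 101 CPM (94.8 to 107; 40.8, 94.9 and 157). The library ranges of these neighbours overlapped. Type 2 innate lymphoid cell-like cells appeared between them and the B cells at 152 CPM, but 112 of their 123 Ccr7 UMIs came from 1 cell of library 3, which also held 20 Fscn1 UMIs and UMIs of 6 of the 8 mature DC markers. Without that cell the class stood at 14.1 CPM. Type 1 DC-like cells (64.8 CPM, 8 of 108 cells) varied from 0 to 256 CPM between libraries, and plasma cell-like cells (75.5 CPM, 41.4 without library 6) numbered only 37. Classical monocyte-like, macrophage-like and neutrophil-like cells lay at 2.08, 4.33 and 5.62 CPM, and the last moved by over 1.5 times without library 2.

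Mature DC-like and then mature B cell-like cells stayed above type 2 DC-like and T cell-like cells at equal depth. After each cell was thinned to 3000 UMIs, 98.8% of mature DC-like and 60.2% of mature B cell-like cells remained positive for Ccr7. The shares were 15.6% (12.1 to 19.6%) of type 2 DC-like and 14.8% (12.7 to 17.1%) of T cell-like cells, so the order of this pair was not resolved. In classical monocyte-like cells, a class that should hold little Ccr7, the share was 0.393%. Unthinned, the monocyte share was 1.73%. The median depths were 15746.5 UMIs in mature DC-like, 5859 in mature B cell-like and 16293.5 in classical monocyte-like cells.

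Within the B lineage, Ccr7 was 8.53-fold higher in mature B cell-like than in precursor B cell-like cells (54.6 CPM, 50.05 to 59.5; 812 cells), with a counting interval of 7.80 to 9.34 and the same direction in 6 of 6 libraries. Of all genes of 5 CPM or more in either class, 3.23% were at least 4-fold higher in the mature class. Among mature B cell-like cells, those with UMIs of both Ighd (IgD heavy chain) and Fcer2a (the low affinity IgE receptor CD23) stood at 549 CPM (495 to 689 over libraries). Cells with 1 of these 2 genes stood at 424 CPM (300 to 589). Cells with neither stood at 423 CPM (264 to 620), so the libraries overlapped. Ighd and Fcer2a are markers of the mature B cell gate.

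Fscn1, the actin bundler, was the most concentrated of the 4 genes. Mature DC-like cells held 77.8% of its 2598 UMIs and stood at 1426 CPM (1364 to 1489), with 78 of 84 cells positive (92.9%, 85.1 to 97.3%). The 6 libraries stood at 1379, 1388, 1438, 1427, 1285 and 1903 CPM. All libraries lay close together except library 6, which rested on 5 cells.

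No other class of 30 or more cells passed 25 CPM. Fibroblast-like cells, which the CD45+ sort should remove, stood at 23.2 CPM (16.8 to 31.3), with 18 of 117 cells positive and 9.14 to 97.8 CPM over libraries, while 8 endothelial-like cells held 9 UMIs. The 20 Fscn1 UMIs of the type 2 innate lymphoid cell-like class were those of the single cell named above. Type 2 DC-like cells (0.653 CPM, 5 UMIs), type 1 DC-like cells (1.95 CPM, 5 UMIs, 4 of them in library 1) and mature B cell-like cells (0.0740 CPM, 1 UMI) were near 0. Outside the gate, 14 cells held 10 or more Fscn1 UMIs, and 12 of these held 4 or more of the 8 mature DC markers.

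Among the other actin bundlers, Actn1 (alpha-actinin) was 282 CPM in mature DC-like and 28.6 CPM in type 2 DC-like cells, a ratio of 9.86 (8.34 to 11.7) with the same direction in 6 of 6 libraries. The leukocyte plastin Lcp1 (545 against 672 CPM) and Actn4 (50.1 against 91.2 CPM) were not higher. Pls3, another plastin, stood at 7.76 against 3.79 CPM, a ratio of 2.05 (0.923 to 4.22), higher in 5 of 6 libraries. Of the 7 genes of this list, 4 reached 5 CPM in either class. Fscn2 and Fscn3, the fascins of retina and testis, gave 3 UMIs and 0 UMIs in mature DC-like cells.

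**Figure D1:**
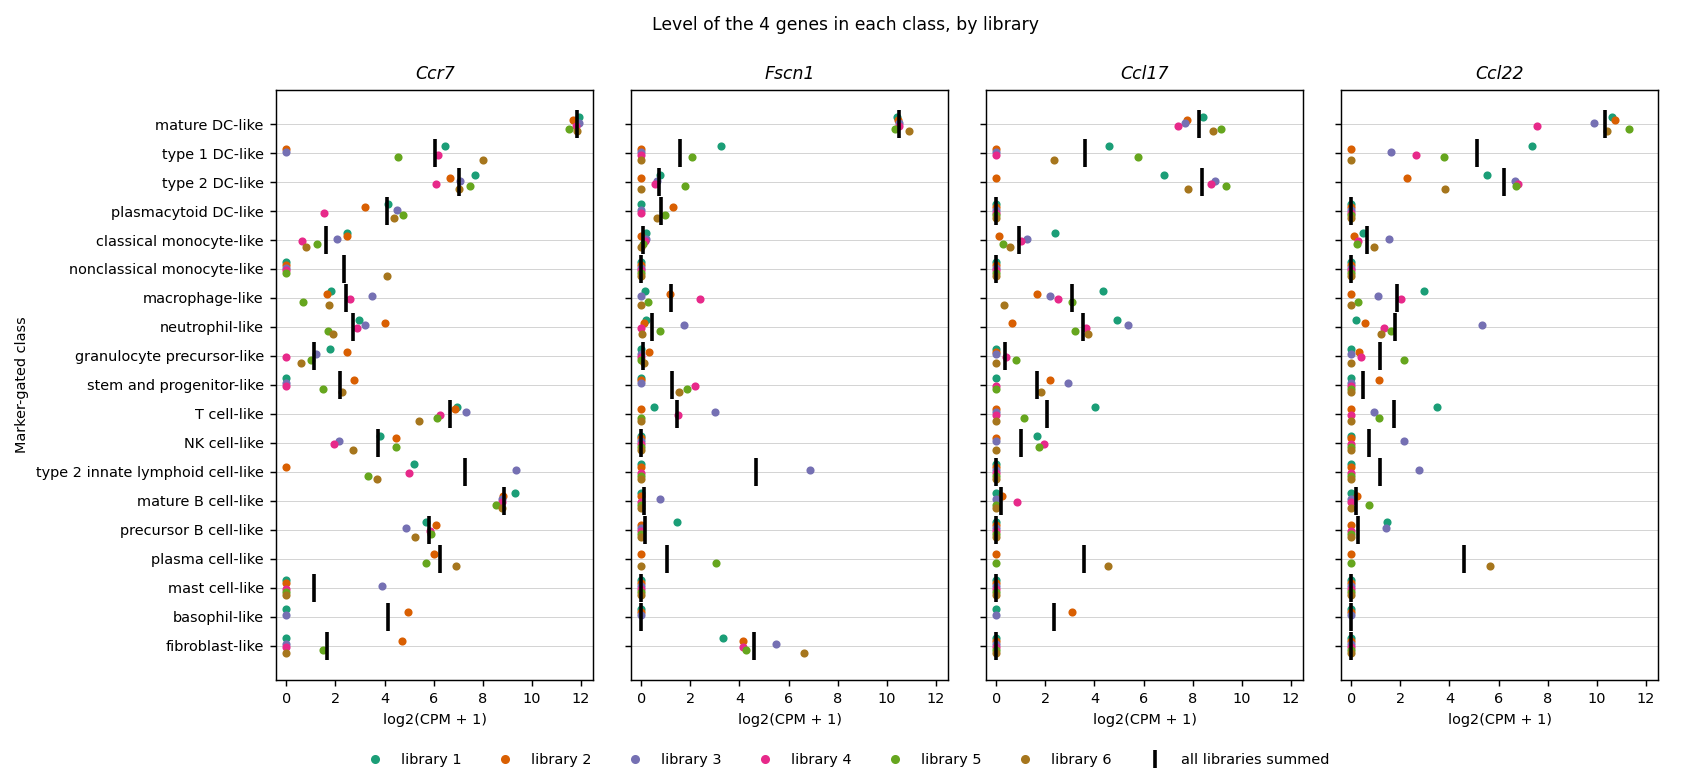
Level of Ccr7, Fscn1, Ccl17 and Ccl22 as log2(CPM + 1) on the horizontal axis for the 19 marker-gated classes of 30 or more cells. Coloured points are libraries with 5 or more cells of the class and black bars are all libraries summed; Fscn1 stands apart in mature DC-like cells, Ccr7 extends to mature B cell-like cells, and Ccl17 is as high in type 2 DC-like as in mature DC-like cells.

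Ccl17 did not follow Fscn1. Its level was 330 CPM (317 to 343) in type 2 DC-like cells, the class set by Cd209a, Clec10a, Mgl2, Flt3 and Kmo, and 300 CPM (273 to 330) in mature DC-like cells. The type 2 DC-like libraries stood at 114, 0, 476, 427, 654 and 221 CPM. The mature DC-like libraries stood at 340, 218, 202, 169, 560 and 457 CPM. The classes overlapped and each was the higher in 3 of 6 libraries, with a ratio of mature to type 2 DC-like of 0.911 (0.820 to 1.01). The order of the pair was not stable, since the ratio was 1.36 with a stricter gate (285 against 209 CPM), 1.10 with clusters in place of the gate, 1.20 without library 3 and 1.10 without library 4.

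Library 2 was set apart by its type 2 DC-like cells, of which 0 of 58 held Ccl17, at a limit of 2.87 CPM for 3 UMIs. This 0 depended on the gate, since the libraries of the type 2 DC-like cluster stood at 21.7 to 540 CPM. Over the whole of library 2 Ccl17 stood at 1.20 CPM, against 13.1 to 39.6 CPM in the others. Without library 2 the type 2 DC-like level was 382 CPM. The 7 mature DC-like cells of library 2 were not low, at 218 CPM.

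Most DC-like cells held none of this chemokine. Only 90 of 391 type 2 DC-like cells (23.0%, 18.9 to 27.5%) and 30 of 84 mature DC-like cells (35.7%, 25.6 to 46.9%) were positive, and single cells reached 234 and 74 UMIs. After thinning, 14.1% and 21.7% remained positive. The 2024 mature B cell-like cells, which should lack the gene, gave 2 positive cells (0.0988%), and 0 of 812 precursor B cell-like cells were positive, which allows a share of up to 0.369% of cells with a UMI, counting 3 cells as the limit. Against classical monocyte-like cells (0.917 CPM) the type 2 DC-like level was 360-fold higher (281 to 468), in 5 of 6 libraries; 4.02% of genes were 4-fold or more higher. Without library 1 this ratio was 737.

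Much of Ccl17 lay in cells that the gate put elsewhere. The gated type 2 DC-like cells held 29.1% of its 8689 UMIs and the mature DC-like cells 4.90%, while ungated cells held 45.7% and neutrophil-like cells 15.1%. In clusters made without the 4 genes, the type 2 DC-like cluster of 1029 cells held 73.4%. The 48 neutrophil-like cells with Ccl17 had a median of 25461 UMIs against 7698 in the other 10876. They stood at 584 CPM for Mgl2 and 7490 CPM for the MHC class II gene H2-Ab1, against 8.47 and 287 CPM in the others, and at 5568 CPM for the neutrophil gene Retnlg, against 12822 CPM. Of these 48 cells, 30 fell into the type 2 DC-like cluster. Whether they were doublets was not tested.

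**Figure D2:**
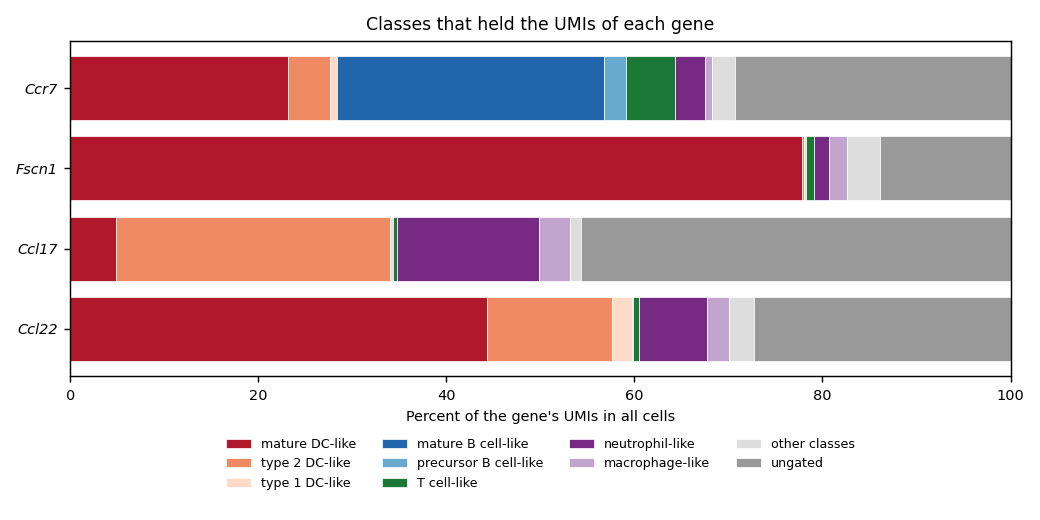
Share of all UMIs of each gene, in percent on the horizontal axis, held by each marker-gated class, with small classes joined as other classes. Mature DC-like cells held 77.8% of Fscn1 and 44.3% of Ccl22, mature B cell-like cells 28.5% of Ccr7, and ungated cells 45.7% of Ccl17.

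Ccl22 lay between these patterns. Its level was 1305 CPM (1246 to 1365) in mature DC-like cells, where 61 of 84 were positive (72.6%, 61.8 to 81.8%), and 73.0 CPM (67.1 to 79.4) in type 2 DC-like cells, where 81 of 391 were positive (20.7%). The mature DC-like libraries stood at 1579, 1727, 932, 189, 2503 and 1348 CPM. Library 4 was the lowest (134 to 258) and library 5 the highest (2285 to 2735). Few cells carried much of the gene, since 5 cells held 43.1% of the 1850 Ccl22 UMIs of the class and a single cell held 283. In the same 2 libraries Ccr7 stood at 3571 and 2898 CPM and Fscn1 at 1427 and 1285 CPM. Library 4 still had Ccl22 UMIs in 7 of its 12 mature DC-like cells.

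In type 2 DC-like cells the Ccl22 libraries stood at 45.3, 3.83, 101, 110, 104 and 13.2 CPM. Library 2 was again the lowest. Mature DC-like cells were 17.9-fold above type 2 DC-like cells (16.2 to 19.7), higher in 6 of 6 libraries. Type 1 DC-like cells followed at 33.9 CPM, of which 67 of 87 UMIs came from 1 cell, and the class stood at 7.87 CPM without it and at 4.31 CPM without library 1, which held 78 of the UMIs. Mature B cell-like cells gave 2 UMIs and plasmacytoid DC-like cells none. Thinning lowered the positive share to 45.8% of mature DC-like and 8.18% of type 2 DC-like cells.

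**Figure D3:**
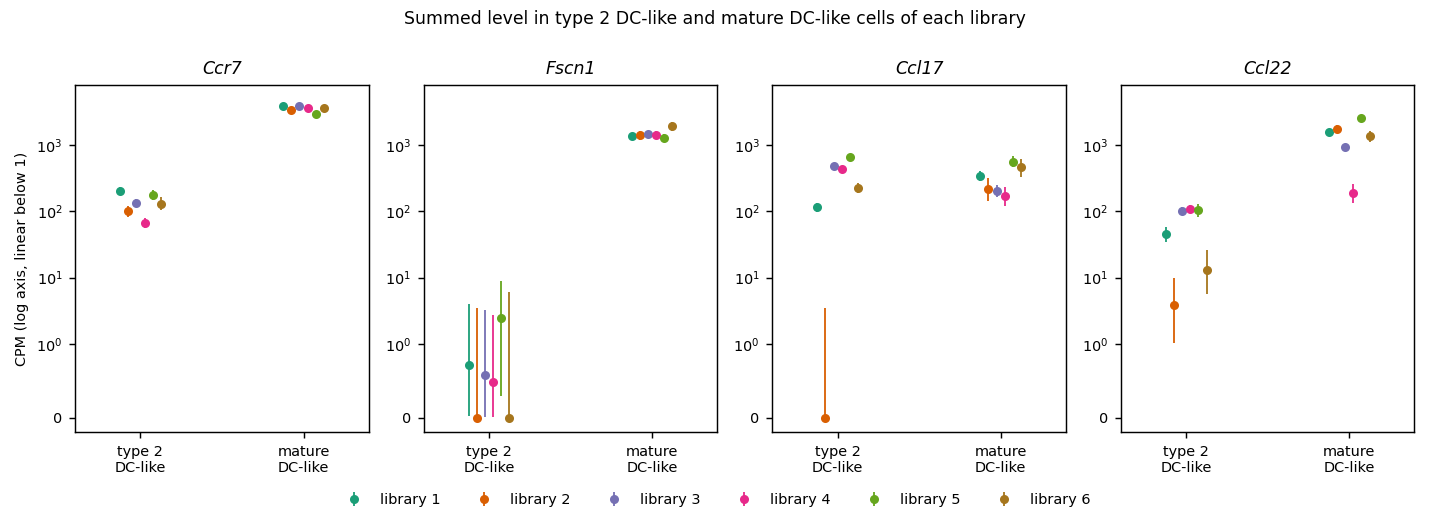
CPM of the 4 genes (vertical axis, logarithmic above 1 and linear below) in type 2 DC-like and mature DC-like cells of libraries 1 to 6, with 95% exact Poisson intervals. The 2 classes do not overlap for Ccr7, Fscn1 and Ccl22, overlap for Ccl17, and library 2 has no Ccl17 UMI in type 2 DC-like cells.

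Set side by side, 3 of the 4 genes (Ccr7, Fscn1 and Ccl22) were at least 4-fold higher in mature DC-like than in type 2 DC-like cells, where 6.09% of the 9531 genes of 5 CPM or more in either class were. The ratios were 28.1 (26.2 to 30.1) for Ccr7 and 2183 (934 to 6729) for Fscn1, the latter resting on 5 UMIs in the lower class and reaching 3303 without library 5. With clusters in place of the gate the Fscn1 ratio was 145, since the larger type 2 DC-like cluster stood at 10.7 CPM. All 4 were at least 4-fold higher than in type 1 DC-like cells, where 8.37% of genes were, and higher there in 6 of 6 libraries. The ratios to type 1 DC-like cells were 55.7 for Ccr7, 731 for Fscn1, 26.6 for Ccl17 and 38.4 for Ccl22. These rested on few UMIs in the lower class, and without library 1 the ratio was 3011 for Fscn1 and 280 for Ccl22, while without library 5 it was 48.5 for Ccl17. Over the 19 classes of 30 or more cells, 5.55% of genes had their highest level in mature DC-like cells, as Ccr7, Fscn1 and Ccl22 did and Ccl17 did not.

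The genes met in the same cells to unequal degrees. Of the 84 mature DC-like cells, 29 held all 4 genes, 30 held Ccr7, Fscn1 and Ccl22 without Ccl17, and 18 held Ccr7 and Fscn1 without either chemokine. Another 4 held Ccr7 alone, 2 held Ccr7 and Ccl22, and 1 held Ccr7, Fscn1 and Ccl17. Ccl17 was thus nested in Ccl22, with 29 of 30 Ccl17-positive cells also positive for Ccl22, against 32 of 54 Ccl17-negative cells. Among all 32953 cells, 38 held the 4 genes together. Of the 9 that lay outside the gate, 7 were ungated, and 6 held 4 or more of the 8 mature DC markers.

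Type 2 DC-like cells showed other combinations. None of 391 held all 4 genes, 209 held none, and 49 held both chemokines, of which 20 also held Ccr7. Of the 90 Ccl17-positive cells, 54.4% (43.6 to 65.0%) held Ccl22, against 10.6% of the 301 others. Ccr7 was found in 40.0% of the Ccl17-positive and 24.9% of the Ccl17-negative cells. The Ccl17-positive cells were the deeper, with a median of 22159 against 17252 UMIs.

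**Figure D4:**
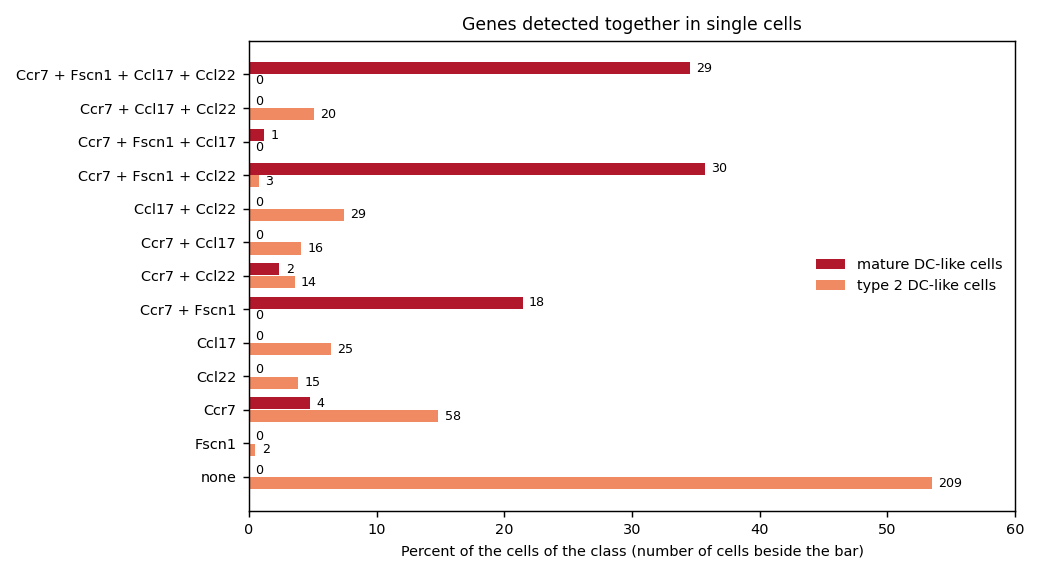
Percent of the cells of a class (horizontal axis) with UMIs of each combination of Ccr7, Fscn1, Ccl17 and Ccl22, with the number of cells beside each bar. Mature DC-like cells fall mainly into 3 combinations of 29, 30 and 18 cells that all hold Ccr7 and Fscn1, and type 2 DC-like cells into combinations without Fscn1.

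Levels of Ccl22 were also higher where Ccl17 was found. In mature DC-like cells Ccl22 stood at 2713 CPM where Ccl17 was found (30 cells) and 453 CPM where it was not (54 cells). It was higher in 5 of 6 libraries, while Ccr7 was 3548 and 3648 CPM. Fscn1 stood at 1856 and 1166 CPM (higher in 4 of 6 libraries). These splits rest on few cells, since libraries 2, 4 and 6 had 3, 2 and 1 cells with Ccl17. In addition, 5 cells held 43.1% of the Ccl22 UMIs of the class. In type 2 DC-like cells Ccl22 was 208 CPM with Ccl17 and 23.4 CPM without it, higher in all 5 libraries that had both kinds of cell. There Mgl2, the galactose-type lectin CD301b, stood at 1015 against 343 CPM (5 of 5 libraries), and Cd209a, a DC-SIGN homologue, at 685 against 882 CPM (lower in 5 of 5). Both lectins are markers of the gate. The transcription factor Irf4 was 167 against 88.1 CPM, higher in 4 of 5.

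Other genes of DC maturation were read from a list chosen with earlier results of these data known, so its counts are a description only. It held 20 genes, all above 5 CPM in either DC class. Of these, 10 were at least 4-fold higher in mature DC-like than in type 2 DC-like cells and none was 4-fold lower, where 6.09% of genes were higher and 8.77% lower by that much, and the median log2 ratio was 1.85 against -0.31 over all genes tested. The highest ratios belonged to the serpin Serpinb6b (130, interval 98.0 to 175) and to Cd200 (98.2, interval 69.9 to 142), whose product is an inhibitory ligand. The T cell-attracting chemokine Ccl5 stood at 3203 against 69.1 CPM, and Il15ra, which presents interleukin-15, at 164 against 4.57 CPM. Serpinb6b, Cd200, Ccl5 and Il15ra were each higher in 6 of 6 libraries. The Ccl5 level was uneven, since the mature DC-like libraries ran from 897 to 9102 CPM with a median of 1889. In that class 5 cells held 45.6% of the Ccl5 UMIs. Cd274 (PD-L1, an inhibitory ligand of T cells) was 813 against 98.0 CPM, and Relb, an NF-kappaB subunit, 917 against 151 CPM.

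The classic costimulatory genes differed less. Cd86 stood at 1294 against 729 CPM (a ratio of 1.77, 1.68 to 1.87), Cd80 at 445 against 257 CPM and Cd83 at 1228 against 864 CPM, each higher in 6 of 6 libraries and short of 4-fold. Cd40 was 281 against 114 CPM, higher in 5 of 6. The adhesion gene Icam1 had the smallest ratio of the list, at 1.17 (1.02 to 1.33) and 4 of 6 libraries.

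The 6 antigen presentation genes had a median log2 ratio of -0.20, against -0.31 over all genes tested. None passed 4-fold in either direction, which with backgrounds of 6.09% and 8.77% is no result about this list. H2-Ab1 stood at 4299 against 8865 CPM and the invariant chain Cd74 at 12290 against 19890 CPM, both lower in 6 of 6 libraries, while H2-DMb2 was 253 against 153 CPM and higher in 6 of 6.

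The 9 genes of type 2 cytokine and GM-CSF signalling, pathways known to induce CCL17, had a median log2 ratio of -0.66. Over all genes tested it was -0.31. None of the 9 passed 4-fold, again against those backgrounds. Crlf2, the receptor of thymic stromal lymphopoietin, stood at 38.1 against 142.6 CPM, Klf4 at 187 against 429 CPM and the GM-CSF receptor chain Csf2rb at 202 against 341 CPM, each lower in 6 of 6 libraries. Il4ra (144 against 116 CPM) and Stat6 (68.4 against 60.2 CPM) differed little, each higher in 4 of 6.

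**Figure D5:**
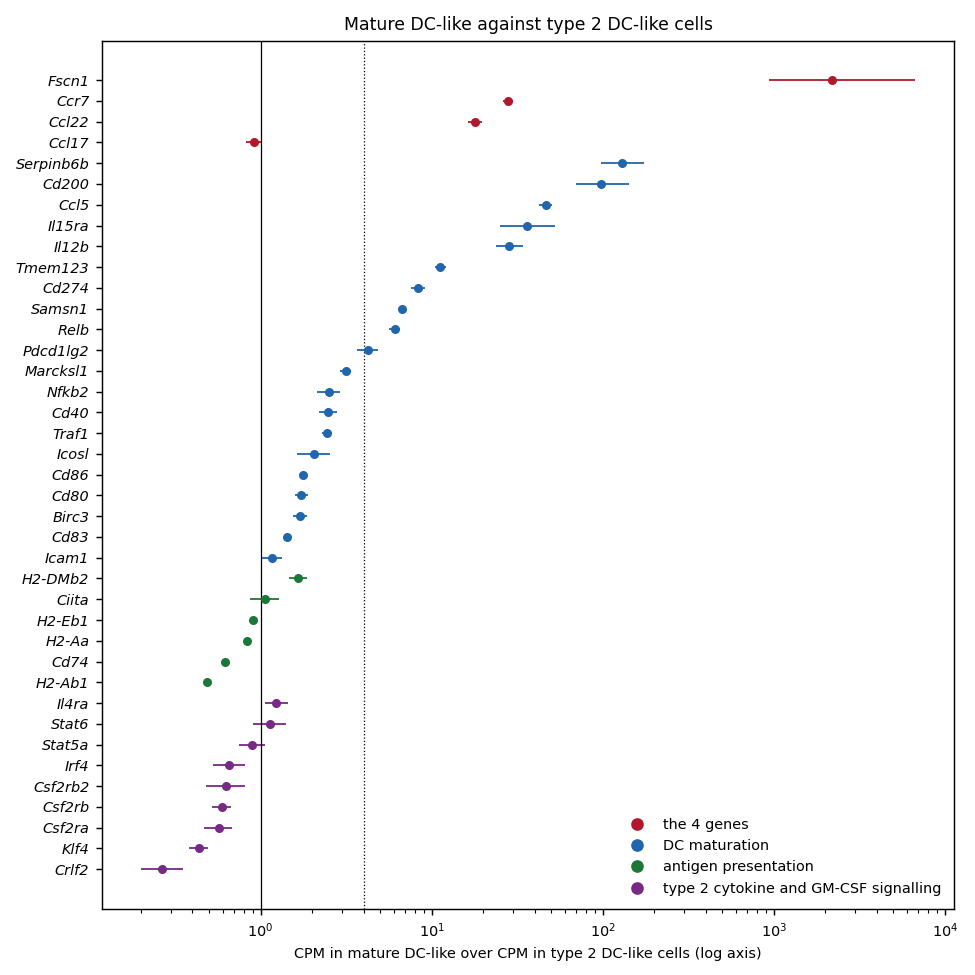
Ratio of CPM in mature DC-like over type 2 DC-like cells (horizontal axis, logarithmic) with 95% exact counting intervals for the 4 genes and 3 lists; the solid line is a ratio of 1 and the dotted line the 4-fold limit. Fscn1, Ccr7 and Ccl22 lie to the right of the dotted line with 10 of 20 maturation genes, whereas Ccl17 (0.911) lies at 1 and no gene of the other lists passes 4-fold.

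Apart from Ccrl2, the ligands and receptors read beside these genes were scarce in the CD45+ cells. Of 1217 UMIs of Ccl21a, a CCR7 ligand with near-identical gene copies among which reads may be divided, all came from library 5 and 1199 from 3 of the 8 endothelial-like cells, with 968 in a single cell. Ccl19, the other ligand, gave 35 UMIs in 22 cells, of which 12 were fibroblast-like. The CD45+ sort should remove endothelial cells and fibroblasts, so these counts do not show how much of either ligand the joint held. Ackr4, which scavenges CCR7 ligands, gave 215 UMIs over 191 cells, 1 of them in mature DC-like cells. Ccrl2, a non-signalling chemokine receptor, was common, with 36431 UMIs in 8976 cells. It was 69.1 CPM in mature DC-like and 80.7 CPM in type 2 DC-like cells.

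Ccr4, the receptor of CCL17 and CCL22, lay mainly in T cell-like cells, which held 310 of its 387 UMIs (27.2 CPM, 24.2 to 30.4; 11.7 to 44.6 over libraries). T cell-like cells with UMIs of Foxp3, the regulatory T cell factor, stood at 59.3 CPM (47.1 to 73.7; 135 cells) and those without at 22.8 CPM (19.9 to 26.0; 906 cells). The Foxp3-positive cells ranged from 0 to 128 CPM over libraries with as few as 9 cells, and the others from 8.50 to 43.3 CPM, so the libraries overlapped. For Ccr7 the same cells stood at 171 and 90.9 CPM, also overlapping, and 28.9% and 26.7% were positive. Ackr2, a scavenger of inflammatory chemokines, gave 32 UMIs, 19 of them in fibroblast-like cells.

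The genes most alike over the 19 classes were ranked by Pearson's r of log2(CPM + 1), a description over classes that share libraries and depth. Some class values rested on 1 cell. In plasma cell-like cells 1 cell held 20 of 21 Ccl22 and 9 of 10 Ccl17 UMIs, and in macrophage-like cells 1 cell held 42 of 50 Fscn1 UMIs. Spearman's rho kept only 2, 0, 3 and 1 of the 5 genes nearest to Ccr7, Fscn1, Ccl17 and Ccl22. Ccl17 and Ccl22 were each among the 5 most like the other, with r = 0.90, whereas Ccr7 and Ccl17 reached 0.54 and Fscn1 and Ccl17 0.44. Ccl22 was most like Il12b (r = 0.96), the p40 chain of interleukin-12 and interleukin-23, then the surface protein gene Adam23 (0.91), P2rx5 (0.91), Ccl17 and Ccdc64b (0.90). Il12b in mature DC-like cells ran from 142 to 1686 CPM over libraries with a median of 390, and 55.4% of its UMIs there came from 5 cells. Of its 30 positive mature DC-like cells, 24 held Ccl22, near the share of the whole class (61 of 84 cells, 72.6%). Il12b stood at 541 CPM in mature DC-like cells with Ccl22 and 530 CPM in those without it. That ratio was 1.02 (0.860 to 1.22), so the likeness over classes was not seen between single cells of this class. Type 2 DC-like cells differed, with Il12b at 76.0 CPM in cells with Ccl22 and 0.690 CPM in those without it. There Il12b was found in only 1.28% of cells and was higher with Ccl22 in 2 of 6 libraries.

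Ccl17 was also most like Ccdc64b (0.87), Klri1 (0.82), Adam23 (0.81) and Il12b (0.81). Ccr7 was nearest to H2-Eb2 (0.88), RP23-32A8.5 (0.84), Casc3 (0.82), Tmem123 (0.82) and Il4i1 (0.82). H2-Eb2, an MHC class II gene, stood at 100.1 CPM in mature DC-like, 34.3 in mature B cell-like and 9.15 in type 2 DC-like cells, and Il4i1 is itself a marker of the mature DC gate. Fscn1 was nearest to Gm8773 (0.96), Bcam (0.95), Cacnb3 (0.94), 4930415O20Rik (0.90) and Plek2 (0.88). Cacnb3, a calcium channel subunit, is a marker of the gate, and the others were rare, between 5.64 and 19.0 CPM in mature DC-like cells.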

How the data were processed

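CD45+ synovial cells of 6 samples (2 PBS, 4 PEPITEM) were profiled by the authors with the Chromium Single Cell 3′ kit v3.1. The authors aligned reads to mm10 with Cell Ranger, removed ambient RNA with SoupX and doublets with DoubletFinder, kept cells with 200 to 7000 genes and at most 10% mitochondrial reads in Seurat, and deposited UMI counts of all samples in 1 unscaled table, in which 1724738 entries are stored zeros. The submitters' processing notes name Cell Ranger 7 and mm10. Whether a sample pooled several mice is not given in the sources used here. The planned gate, CPM, intervals, thinning and ratios were computed in Python 3.11.15 with scipy 1.17.1, and clusters with igraph 0.11.9 (2000 variable genes, 15 neighbours, Leiden resolution 2). Ratios were checked on simulated data. The 4 genes and all lists were chosen with earlier results of these data known. Named genes were the 4 genes, the 5 most alike to each and the lists. Alternatives were other gates, clusters, thinning, floors and leaving out each library. Another planned split of T cell-like cells is not reported here.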

Additional observations from a re-analysis of the deposited data

How the results depend on the processing

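Ccr7, Fscn1 and Ccl22 were highest in mature DC-like cells, among classes of 30 or more cells, under both other gates, with clusters and without each library. For Ccl17 the ratio of mature to type 2 DC-like cells turned from 0.911 to 1.36 with the stricter gate, 1.10 with clusters, 1.20 without library 3 and 1.10 without library 4, and was 0.756 to 0.889 with the looser gate or without another library; the cause was not tested. With the stricter gate (0.7 of the markers, lead 0.3) mature DC-like cells stood at 3812 CPM for Ccr7, 1565 for Fscn1 and 1475 for Ccl22, and held 17.9% of Ccr7, 62.5% of Fscn1, 3.41% of Ccl17 and 36.6% of Ccl22 UMIs. Type 2 DC-like cells then stood at 209 CPM for Ccl17 and 82.8 for Ccl22, with 10.1% and 8.33% of the UMIs, and mature B cell-like cells at 518 CPM for Ccr7. With the looser gate (0.4, lead 0.1, 2 markers) Fscn1 and Ccl22 were 1319 and 1227 CPM in mature DC-like cells, which held 24.7% of Ccr7. Ccl17 was then 370 CPM in type 2 DC-like cells, which held 38.1% of Ccl17 and 16.6% of Ccl22, and Ccr7 was 437 CPM in mature B cell-like cells.

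Leiden clusters, made without the 4 genes, gave 80 mature DC-like cells, 71 of them also gated. The other 13 gated cells fell into the type 2 DC-like cluster, among them 5 of the 6 gated cells without Fscn1. In the mature DC-like cluster Ccr7 and Fscn1 stood at 3446 and 1551 CPM, and 98.75% of its cells held Fscn1. That cluster held 21.4% of Ccr7, 82.3% of Fscn1 and 41.5% of Ccl22 UMIs. The type 2 DC-like cluster stood at 298 CPM for Ccl17 and 83.7 for Ccl22 and held 73.4% and 42.8% of their UMIs, and mature B cell-like clusters stood at 491 CPM for Ccr7. The median library was 1464 CPM for Ccl22 in mature DC-like and 441 CPM for Ccr7 in mature B cell-like cells. Thinning lowered the positive share of mature DC-like cells to 21.7% for Ccl17 and 45.8% for Ccl22, and asking for 2 UMIs to 59.5% for Ccl22. With a floor of 20 CPM, 361 genes in place of 580 were 4-fold higher in mature DC-like than in type 2 DC-like cells. A higher floor admits fewer genes, and the share of genes at that floor is not given here.

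Without each library in turn, mature DC-like cells stood at 3518 to 3724 CPM for Ccr7, 1393 to 1448 CPM for Fscn1, 259 to 343 CPM for Ccl17 and 1114 to 1495 CPM for Ccl22. They held 19.2 to 28.6% of Ccr7, 76.2 to 80.3% of Fscn1, 3.94 to 5.97% of Ccl17 and 40.0 to 50.5% of Ccl22 UMIs. The positive shares were 91.7 to 94.4% for Fscn1, 33.3 to 38.9% for Ccl17 and 70.1 to 75% for Ccl22. Type 2 DC-like cells stood at 287 to 382 CPM for Ccl17 and 59.7 to 84 CPM for Ccl22 and held 24.9 to 33% and 9.34 to 15.7% of their UMIs, and mature B cell-like cells stood at 437 to 478 CPM for Ccr7. The mature to type 2 DC-like ratio of Fscn1 was 3303 without library 5. Several levels and ratios of classes with few UMIs of a gene also moved by over 1.5 times without 1 library.

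Of the 5 genes most like each member, a pseudocount of 10 kept 3 for Ccr7, 4 for Fscn1, 3 for Ccl17 and 4 for Ccl22, and Spearman's rho kept 2, 0, 3 and 1. No paired analysis was possible because the barcodes are not linked to samples. The class-wise values of type 2 DC-like and mature B cell-like cells, the clusters and library medians for positive shares, and the shares, levels and ratios without 1 library in other classes were tried after seeing the data. The 84 mature DC-like cells, with as few as 5 in a library, limit the library values.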
